A study of Homo sapiens with 40 samples.

Results

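Accessible chromatin was described at 8 receptor tyrosine kinase genes that are discussed as bypass routes when HER2 is blocked: IGF1R, INSR, MET, AXL, EPHA2, FGFR1, FGFR2 and RET. Peaks of all 40 ATAC-seq libraries were merged where they overlapped by at least 1 bp, and merged regions found in at least 2 libraries were kept. Of the 71600 regions obtained, 97 had their midpoint inside one of these genes or within 50 kb of either end, and these 97 are the regions described here. IGF1R held 26 of them, EPHA2 15, RET 14, INSR, MET, AXL and FGFR1 10 each, and FGFR2 2. Gene bodies held 53, 24 lay upstream and 20 downstream. Annotated starts of the receptor genes, alternative starts included, had 18 regions within 1 kb. Another 11 regions were within 1 kb of a start of a neighbouring protein-coding gene alone, and some of the 18 share a start with a neighbour or a noncoding RNA, so a region counted for a receptor need not act on it.

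ATAC-seq uses a transposase to cut DNA where chromatin is open, and a peak marks a stretch with many cuts. BT474 is a HER2-overexpressing line from a breast ductal carcinoma that is sensitive to trastuzumab, the antibody against HER2. BT474R is a trastuzumab-resistant clone of BT474, obtained by growing the parent line in the antibody, so the resistant side of every comparison is a single clone. Both lines were starved of serum and collected untreated at 0 h (baseline) or after 1, 12 or 24 h with water (control), epidermal growth factor (EGF) or heregulin (HRG). Each of the 10 conditions in each line had 2 libraries, which gives 20 libraries a line. The authors report duplicate treatments but do not say whether the duplicates came from separate experiments, so p-values speak only of these libraries. Those from limma rest on the spread within pairs of libraries of the same condition. Those from Fisher's exact test use no such spread, and count libraries of different treatments or times in a line as alike.

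Receptor tyrosine kinases span the membrane, bind a ligand outside the cell and, once paired, phosphorylate themselves and adaptor proteins that feed the PI3K-AKT and RAS-MAPK pathways. HER2 uses those same pathways, so another active receptor can keep them running when trastuzumab blocks HER2. IGF1R and INSR bind insulin-like growth factors and insulin and signal through IRS adaptors. MET binds hepatocyte growth factor, AXL binds GAS6, EPHA2 binds ephrins on neighbouring cells, FGFR1 and FGFR2 bind fibroblast growth factors, and RET binds ligands of the GDNF family together with GFRA co-receptors. Promoter accessibility often accompanies use of a gene, but neither RNA nor protein was measured in these files.

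The 200 bases around the mean summit are shown for 1 region of each of 6 receptors, the region with the lowest p between lines at that gene (a tie at IGF1R), and for the EPHA2 region that opened with HRG. Coordinates are GRCh38 and the plus strand is given. Capitals mark matches, on either strand, to GGGCGG (SP/KLF), TGANTCA (AP-1), GCCNNNGGC (TFAP2) or GGAATG (TEAD).
IGF1R intron, chr15:98731740-98731939, open in BT474R: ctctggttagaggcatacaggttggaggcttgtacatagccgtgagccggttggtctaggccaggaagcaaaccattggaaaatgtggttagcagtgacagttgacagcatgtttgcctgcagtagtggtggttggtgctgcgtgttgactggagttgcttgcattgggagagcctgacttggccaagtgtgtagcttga
INSR promoter flank, chr19:7294850-7295049, open in BT474: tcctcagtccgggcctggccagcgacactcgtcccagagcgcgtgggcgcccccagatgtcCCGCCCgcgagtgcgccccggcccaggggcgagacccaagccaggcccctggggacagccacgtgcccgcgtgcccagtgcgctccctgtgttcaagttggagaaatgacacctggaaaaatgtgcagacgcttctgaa
MET upstream, chr7:116630996-116631195, open in BT474R: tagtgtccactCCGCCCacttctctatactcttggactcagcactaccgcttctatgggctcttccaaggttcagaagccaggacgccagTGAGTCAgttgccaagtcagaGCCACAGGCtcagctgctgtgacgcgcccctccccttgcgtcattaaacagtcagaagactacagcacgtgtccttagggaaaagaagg
AXL intron at an alternative start, chr19:41226415-41226614, open in BT474: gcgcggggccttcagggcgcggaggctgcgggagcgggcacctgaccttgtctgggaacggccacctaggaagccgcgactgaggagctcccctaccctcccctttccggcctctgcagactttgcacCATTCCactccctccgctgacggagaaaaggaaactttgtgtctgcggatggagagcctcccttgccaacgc
EPHA2 intron at an alternative start, chr1:16145244-16145443, open in BT474: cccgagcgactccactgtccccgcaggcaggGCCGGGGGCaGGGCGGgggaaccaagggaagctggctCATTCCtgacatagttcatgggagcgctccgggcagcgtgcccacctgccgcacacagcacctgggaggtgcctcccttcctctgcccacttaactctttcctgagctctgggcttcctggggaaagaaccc
RET intron, chr10:43079007-43079206, open in BT474R: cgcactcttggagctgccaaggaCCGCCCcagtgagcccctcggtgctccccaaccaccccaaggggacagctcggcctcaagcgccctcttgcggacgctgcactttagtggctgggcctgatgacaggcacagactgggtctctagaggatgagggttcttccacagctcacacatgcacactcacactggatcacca
EPHA2 upstream, chr1:16164358-16164557, opened with HRG: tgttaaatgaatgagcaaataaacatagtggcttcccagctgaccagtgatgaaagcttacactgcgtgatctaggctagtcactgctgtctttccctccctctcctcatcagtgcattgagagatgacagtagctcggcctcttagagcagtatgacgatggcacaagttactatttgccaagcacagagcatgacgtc
The MET window holds an AP-1, a TFAP2 and an SP/KLF match, and the EPHA2 intron window a TFAP2, a TEAD and an SP/KLF match. The IGF1R and EPHA2 upstream windows hold none of the 4 motifs. Matching letters describe a window and do not show that a factor was bound there.

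The lists differed in length, and this bears on every count of open regions. BT474 lists held 47571 to 56846 peaks and BT474R lists 32479 to 56494, with the shortest at 12 h (32479 to 45808). A library had a peak in 68 to 83 of the 97 receptor regions in BT474 (median 73) and in 29 to 77 in BT474R (median 58). Over all 71600 regions, 63.1 to 74.8% were open in a BT474 library and 42.2 to 74.7% in a BT474R library. Peak lists carry no read totals, so depth is unknown here and a missing peak means that none was called. In a bulk library, fewer cells with an open region cannot be told apart from a less open region in each cell. Of 9 luminal breast markers, 8 had a promoter region open in all 40 libraries, the other being ESR1 with 38. The promoters of the blood markers PTPRC, CD3E and SPI1 were open in none. Promoters of 2 of 6 basal or mesenchymal markers (VIM and CDH2) were also open in all 40 libraries. So were 2 of 3 endothelial markers (CDH5 and VWF) and 1 of 3 fibroblast markers (COL1A1), while KRT14 (basal) and PECAM1 (endothelial) were open in none. An open promoter alone therefore did not mark a cell type here.

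Between the lines, more receptor regions were called on the BT474 side, but not at every gene. With 20 libraries a side, 53 of the 97 regions could reach the threshold in Fisher's exact test (two-sided, Benjamini-Hochberg adjusted over all 32683 such regions). Of the 53, 32 (60.4%) were open in more BT474 libraries, against 44.6% of all regions tested. Another 10 (18.9%) were open in more BT474R libraries, against 27.2% of all regions, and 11 were not called. IGF1R alone held 19 of the 53 tested regions and 14 of the 32 called for BT474, and regions of 1 gene may not vary independently. FGFR1 had 1 call for BT474 and 2 for BT474R, RET 0 and 2, and FGFR2 0 and 0. The shares thus describe these loci and not a trait common to the 8 receptors. The median difference was -7 libraries for the receptor regions and -5 over all regions. With every list held to its 32479 strongest peaks, 21 of 35 testable receptor regions (60%) were still more often open in BT474 and 8 (22.9%) in BT474R, beside 39.1% and 37% of all regions. Leaving out the 12 h libraries gave 21 and 10 of 43, beside 35.2% and 33.2%.

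**Figure D1:**
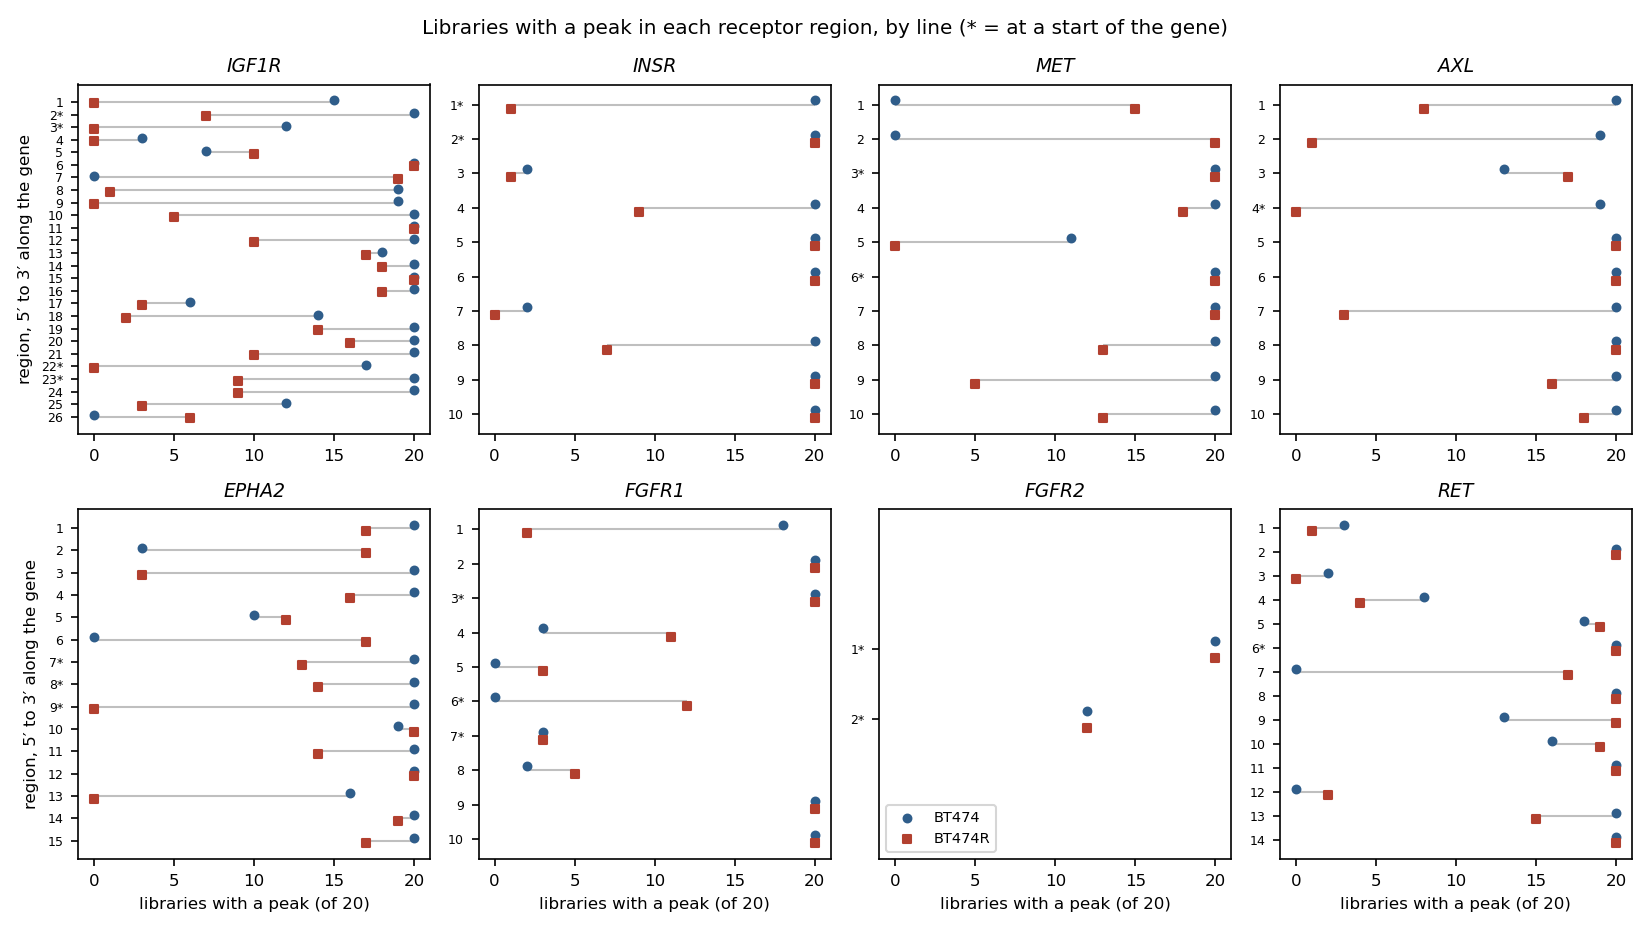
Libraries with a peak (of 20) in BT474 (circles) and in BT474R (squares) at each receptor region, 1 panel a gene, with regions numbered from 5′ to 3′ along the gene and a star at its starts. Most IGF1R, AXL and INSR differences lie on the BT474 side, and MET region 2, at 0 against 20, lies on the other.

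IGF1R, the receptor for insulin-like growth factors, had the most regions that differed, 14 more often open in BT474 and 2 in BT474R of 19 tested. Its promoter region (chr15:98647060-98649425), which also covers the start of the antisense RNA IRAIN, was open in 20 of 20 BT474 and 7 of 20 BT474R libraries (adjusted p = 4.05e-05, Fisher's exact test). Where open, its median rank within a list, as a percentile of the peak score, was 52.5 in BT474 and 15.1 in BT474R. A neighbouring intron region at +1.7 kb from the gene start was open in 12 and 0 libraries (adjusted p = 0.000125). That difference missed the threshold when only scores of at least 400, or equal numbers of peaks, were used.

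Further into the 316 kb gene, the region at +103.5 kb was open in 19 of 20 BT474 and 0 of 20 BT474R libraries, and that at +97.7 kb in 19 and 1. Alternative starts at +225.4 and +267 kb had a peak in 17 against 0 and in 20 against 9 libraries. The +225.4 kb call did not hold at scores of at least 400, and the +267 kb call did not hold without the 12 h libraries. The clearest exception was the intron region at +83.3 kb, whose sequence is given above. It had no peak in any BT474 library and a peak in 19 of 20 BT474R libraries (adjusted p = 2.64e-09), with percentiles from 1.85 to 55.7 and a median of 30.2. The only BT474R library without it was an EGF 12 h library. Its highest values were in the control libraries at 1 h, at 55.7 and 49.3.

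INSR, the insulin receptor and closest relative of IGF1R, had 3 tested regions, all more often open in BT474. The main promoter region, over the exon with the 5′ untranslated part, was open in all 40 libraries. The separate region next to it at -0.5 kb was open in 20 of 20 BT474 libraries and in 1 of 20 BT474R libraries, a baseline library (adjusted p = 2.64e-09). Its BT474 percentiles ran from 5.33 to 35 with a median of 26.7, so it was a weak peak in every BT474 list. Accordingly the difference was lost (2 libraries fewer, or -10 percentage points) at scores of at least 400 or with equal numbers of peaks. Intron regions at +148.6 and +39.6 kb were open in 20 against 7 and in 20 against 9 libraries.

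MET, the receptor for hepatocyte growth factor, differed in both directions. Its promoter at -15 bp and an alternative start at +52 kb were open in all 40 libraries. Upstream at -41.1 kb, a region had no peak in BT474 and a peak in all 20 BT474R libraries (adjusted p = 1.91e-10). Its BT474R percentiles ran from 12.9 to 55.9 with a median of 42.7, and the lowest were both control 12 h libraries at 12.9 and 28.9. This difference was complete also with equal numbers of peaks. A neighbour at -42.9 kb was open in 0 and 15 libraries (adjusted p = 3.16e-06), a call that ended with equal numbers of peaks. On the other side, a region at +137.7 kb, past the end of the gene, was open in 20 BT474 and 5 BT474R libraries.

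AXL, a receptor of the TAM family that binds GAS6, had 5 tested regions, 4 of them more often open in BT474. No region lay within 1 kb of the 5′ end of the gene. An intron region at an alternative start, +7.3 kb from that end, was open in 19 of 20 BT474 and 0 of 20 BT474R libraries (adjusted p = 2.64e-09). Its percentiles in BT474 ran from 5.64 to 34.4 with a median of 18.9. The other regions counted for AXL sit partly at neighbours: the promoter of CYP2S1, a cytochrome P450 gene, was open in 19 and 1 libraries, and a region within HNRNPUL1 in 20 and 3. The CYP2S1 call did not hold at scores of at least 400.

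EPHA2, an ephrin receptor, combined gains and losses within a short stretch, with 6 regions more often open in BT474 and 2 in BT474R of 9 tested. The intron region at the alternative start at +10.6 kb was open in 20 of 20 BT474 libraries and 0 of 20 BT474R libraries (adjusted p = 1.91e-10). The BT474R-side region at -3.2 kb, at the start of a long noncoding RNA (ENSG00000224621), was open in 0 and 17 libraries (adjusted p = 1.46e-07). Thus a region upstream of the promoter and a region inside the gene differed in opposite directions between the lines. The promoter itself was open in 20 and 13 libraries (adjusted p = 0.0133) and its +1.1 kb neighbour in 20 and 14 (adjusted p = 0.0287). Both of these calls ended without the 12 h libraries. Farther upstream at -19.9 kb, a region was open in 20 and 3 libraries.

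The 2 EPHA2 regions also varied by condition. In BT474, the +10.6 kb region ranked at 41.7 and 35.2 at baseline and at 43.6 and 35.5 in the 1 h controls. It ranked at 62.8 and 64.1 after 1 h of EGF, and at 63.9 and 67 after 1 h of HRG. At 12 h the HRG libraries stood at 62.6 and 60.5 and the EGF libraries at 44.7 and 35.5, against 27.8 and 33.6 in the controls. By 24 h, HRG values of 48.5 and 25.9 spanned the control values of 41.3 and 36.5, and EGF values were 44.4 and 46.5. The HRG values therefore lay above their controls at 1 and 12 h and not at 24 h, and the EGF values lay above them at all 3 times. These percentiles, from lists of unequal length, were not tested. In BT474R, the -3.2 kb region ranked at 4.53 and 3.04 at baseline and at 46.6 and 46.5 after 1 h of water. After 1 h of EGF it ranked at 49.9 and 46.4, and after 1 h of HRG at 45.9 and 45.6, alongside those controls. The 12 h ligand libraries stood at 17.3 to 30.7, against 3.48 in the single 12 h control that had it. It was missing from both 24 h controls and ranked at 43.9 and 50.5 after 24 h of EGF and at 10 and 23.5 after 24 h of HRG.

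FGFR1, a fibroblast growth factor receptor, had 2 regions more often open in BT474R and 1 in BT474 of 5 tested. Its promoter was open in all 40 libraries. An alternative start at +37.5 kb was open in 0 BT474 and 12 BT474R libraries (adjusted p = 0.000125), a call that ended at scores of at least 400 or with equal numbers of peaks. An intron region at +18.8 kb was open in 3 and 11 libraries, while the region at -45.3 kb went the other way with 18 and 2. A region at +67.1 kb near a start shared with LETM2 had a peak in 3 libraries of each line. FGFR2, its relative, had only its promoter, open in all 40 libraries, and an alternative start at +44.4 kb, open in 12 of 20 libraries in both lines.

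RET, the GDNF-family receptor, was the only receptor whose called regions all lay on the BT474R side, with 2 of 5 tested. Its promoter at -18 bp was open in all 40 libraries. The intron region at +1.8 kb had no peak in BT474 and a peak in 17 BT474R libraries (adjusted p = 1.46e-07), with percentiles from 1.27 to 63.6 and a median of 29.8. Both EGF 1 h libraries and a 12 h control lacked it. The 24 h HRG libraries stood at 63.6 and 43.2 and the 24 h EGF libraries at 55 and 48.2. The baseline libraries stood at 54 and 14.5, and the 24 h controls at 38.8 and 35.8. Another intron region at +13.2 kb was open in 13 and 20 libraries (adjusted p = 0.0133), a call that ended at scores of at least 400. That at +33.8 kb was open in 20 and 15 (adjusted p = 0.0597).

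Counting open regions per gene gave a value for each receptor in each library, and limma tested it across the 12352 protein-coding genes with at least 5 regions. Of 7 receptors tested, 4 had fewer open regions in BT474R (57.1%, against 49.7% of all genes) and 1 had more (14.3%, against 25.6%). IGF1R had 18 to 24 open regions in a BT474 library and 4 to 18 in a BT474R library, means of 20.1 and 11.8 (difference -8.25 ± 0.628, SE; adjusted p = 4.82e-11). The lowest BT474R values, 4 to 7, were all at 12 h. AXL fell from a mean of 9.55 to 6.15 (-3.4 ± 0.237; adjusted p = 1.08e-11), INSR from 8.2 to 5.9 (-2.3 ± 0.207; adjusted p = 8.9e-10) and EPHA2 from 12.4 to 9.95 (-2.45 ± 0.449; adjusted p = 3.67e-05). INSR counts of 8 to 9 in BT474 met the BT474R range of 5 to 8 at a single value, whereas EPHA2 counts of 10 to 14 and 2 to 13 overlapped widely. All 4 calls held with equal numbers of peaks, but the sizes moved, to -5.15 for IGF1R, -1.05 for AXL, -1.15 for INSR and -5.3 for EPHA2. At scores of at least 400 they were -6.5, -1.55, -1.65 and -6.35, and for EPHA2 the difference without 12 h was -1.21 (adjusted p = 0.0489).

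RET was the receptor with more open regions in BT474R, 9.85 against 9 (+0.85 ± 0.232; adjusted p = 0.00223), with ranges of 6 to 11 and 7 to 11 that overlapped. That call ended at scores of at least 400 (+0.1, adjusted p = 0.774) and in the baseline and control libraries alone (+0.875, adjusted p = 0.127). MET had means of 7.2 in BT474R and 7.55 in BT474 and FGFR1 of 5.8 and 5.3 (adjusted p = 0.157 for each). FGFR1 turned direction, to -0.3, at scores of at least 400 (adjusted p = 0.0127), but was called higher in BT474R in gene bodies alone (+1.15, adjusted p = 5.83e-05) and without the 12 h libraries (+1.14, adjusted p = 0.0273). MET was called lower at scores of at least 400 (-0.6, adjusted p = 0.00826). FGFR2, with too few regions for the test, had 1.6 in both lines.

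**Figure D2:**
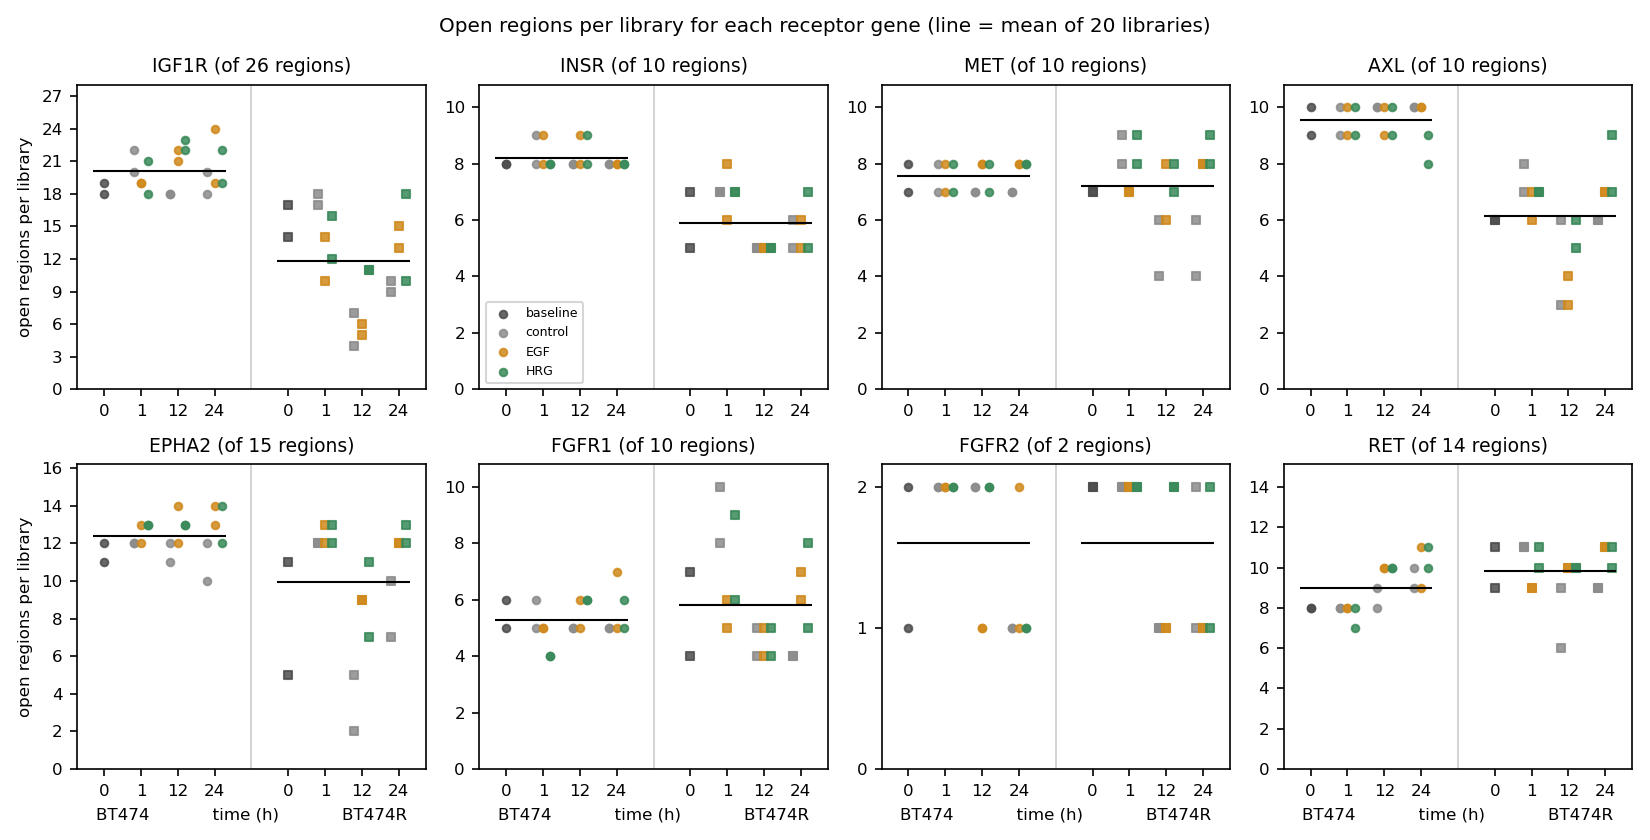
Open regions per library (count) around each of the 8 receptor genes by time (h), 1 point a library coloured by treatment, BT474 on the left and BT474R on the right of each panel, with the mean of 20 libraries as a line. IGF1R points sit at 18 to 24 in BT474 and 4 to 18 in BT474R, and FGFR2 has a mean of 1.6 in both.

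For the 25 receptor regions open in all 40 libraries (25.8% of 97, against 35.1% of all regions), the strength of the peak could be compared. Each score was turned into a percentile among the 25166 regions open everywhere, and the lines were compared with limma. The number of weak peaks in a list thus did not shift the percentiles. A region needed a peak in every list to be included, so the shortest lists still limited which regions were compared. Of the 25, 8 ranked higher in BT474R (32%, against 41% of all such regions), 11 lower (44%, against 42.1%) and 6 were not called. The median difference was -0.66 percentile points, against -0.152 over all. Neither share exceeded the background by much, so the values that follow describe single loci.

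On the lower side stood INSR and IGF1R. An INSR intron region at +96.5 kb fell from 56 ± 12.4 (SD, n = 20) to 24.3 ± 8.82 (-31.7 ± 3.08, SE; limma adjusted p = 2.51e-09), and the INSR promoter from 28.6 ± 6.93 to 15.5 ± 6.42 (-13 ± 1.53; adjusted p = 5.8e-08). In IGF1R, an intron region at +79.2 kb fell from 49.5 ± 5.21 to 29.6 ± 8.54 (-19.9 ± 1.14; adjusted p = 2.6e-13) and another at +131.2 kb by 11.9 points. The MET promoter went from 62.5 ± 4.07 to 52.3 ± 4.44 (-10.2 ± 0.934; adjusted p = 8.73e-10), while an intron region at +108.8 kb rose from 70.4 to 80.5 (+10 ± 0.992; adjusted p = 3.3e-09). EPHA2 had a single region of this kind past the threshold, at +34.8 kb, past the end of the gene, which ranked lower (-7.75 ± 1.05). Around AXL, both regions that were called are at starts of the neighbour HNRNPUL1, and they changed by -9.16 and +6.88 points.

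The FGF receptors and a RET region stood on the higher side. The FGFR2 promoter rose from 5.35 ± 3.68, near the bottom of the scale, to 22.4 ± 8.06 (+17 ± 1.55; adjusted p = 8.14e-10). A region at -41.7 kb from the start of FGFR1 rose from 35.5 ± 14.7 to 60.6 ± 9.48 (+25.1 ± 1.54; adjusted p = 7.66e-13), and the FGFR1 promoter from 54 ± 6.02 to 61.3 ± 7.26 (+7.28 ± 1.65; adjusted p = 0.000348). A region at -32.4 kb from the start of RET rose from 63.1 ± 9.29 to 81.8 ± 4.34 (+18.7 ± 0.92; adjusted p = 1.56e-14). The RET promoter itself differed by -2.78 ± 1.68 (adjusted p = 0.128). The promoter of its neighbour CSGALNACT2, also counted for RET, ranked lower (-23.5 ± 2.03).

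**Figure D3:**
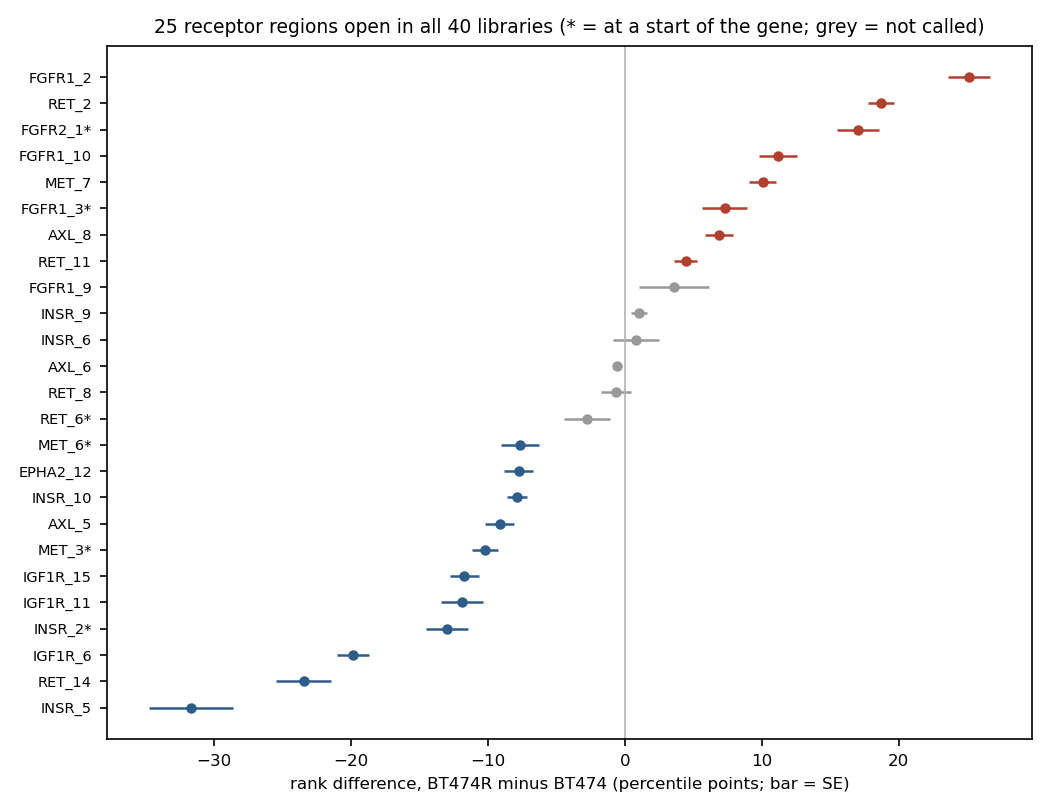
Difference in rank percentile of the peak score, BT474R minus BT474 (percentile points, bars are SE), for the 25 receptor regions open in all 40 libraries, numbered along each gene, with grey points not called. The differences run from -31.7 at the INSR intron region to +25.1 at the FGFR1 upstream region, with 8 called above 0 and 11 below.

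The chromatin on either side of these genes moved too. Among regions 50 kb to 1 Mb away and open in all libraries, the median rank difference was +16.6 points around FGFR2 (9 regions) and +6.39 around FGFR1 (24 regions), the receptors with higher promoters in BT474R. It was -9.23 around MET (8 regions), -7.08 around EPHA2 (44) and -4.2 around IGF1R (14). Around INSR, AXL and RET the medians were -0.92, -1.01 and -1.27. By rank, the direction of the called regions of FGFR1, FGFR2, EPHA2 and IGF1R was thus shared by their surroundings. So was that of the MET promoter, whereas the MET intron region at +108.8 kb went the other way. Presence calls had no single direction at IGF1R (14 for BT474 and 2 for BT474R), EPHA2 (6 and 2) or FGFR1 (1 and 2). The part of the surroundings in those results was not tested.

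Ligand comparisons set the 6 EGF or 6 HRG libraries of a line (3 times, 2 libraries each) against the 6 controls of the same times. The same controls served both ligands. In Fisher's exact test, 4 receptor regions could reach the threshold in BT474 for each ligand, and 11 and 15 in BT474R for EGF and HRG. The only call, before or after adjustment, was HRG in BT474, with 1 region more often open. At an unadjusted p under 0.05, the share of all tested regions more often open was 18.3% for EGF and 20% for HRG in BT474, and 3.67% and 2.31% in BT474R. After adjustment, 6.41% of all regions were more often open with EGF and 7.97% with HRG in BT474, and 0 regions with either ligand in BT474R.

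The region called was EPHA2 at -8.3 kb, open in 6 of 6 HRG and 0 of 6 control libraries of BT474 (Fisher's exact p = 0.00216, adjusted p = 0.0241). It ranked at 21.3 and 21.3 after 1 h of HRG, at 7.19 and 20.6 after 12 h and at 24.9 and 20.3 after 24 h. It was absent from both baseline libraries, and EGF libraries had it in 4 of 6. The call held with each of the 12 libraries left out in turn, but not with equal numbers of peaks. In BT474R it was open in 5 of 6 EGF, 5 of 6 HRG and 2 of 6 control libraries, the latter both at 1 h. The lines had similar totals for this region, 10 of 20 in BT474 and 12 of 20 in BT474R.

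Counted per gene, EPHA2 and MET had more open regions with ligand in BT474R. EPHA2 had 8 on average in the controls, 11.2 with EGF (+3.17 ± 0.82; limma adjusted p = 0.0276) and 11.3 with HRG (+3.33; adjusted p = 0.0194). The control libraries held 12 and 12 at 1 h, 2 and 5 at 12 h and 7 and 10 at 24 h. EGF libraries held 12 and 13, 9 and 9, and 12 and 12 at the same times, and HRG libraries 12 and 13, 11 and 7, and 13 and 12. So the ligand libraries lay above the controls at 12 and 24 h and alongside them at 1 h. Of all genes, 3.89% had more open regions with EGF and 6.32% with HRG in BT474R. MET had 6.17 in the controls and 8.17 with HRG (+2 ± 0.406; adjusted p = 0.00529), with control values of 8 and 9, 4 and 6, and 4 and 6 against HRG values of 8 and 9, 8 and 7, and 9 and 8. Its EGF difference, +1.17, was not called (adjusted p = 0.111).

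List length moved with these counts. The BT474R control lists held 56494 and 54256 peaks at 1 h but 32479 and 40331 at 12 h and 41833 and 45799 at 24 h, and the part of list length in the ligand differences was not tested beyond the following values. With equal numbers of peaks, the EPHA2 difference was +4.17 for EGF (adjusted p = 0.000433) and +1.5 for HRG (adjusted p = 0.347), and that of MET for HRG was +0.667 (adjusted p = 0.475). Without the 12 h libraries all 3 calls ended, at +2 and +2.25 for EPHA2 and +1.75 for MET. Leaving out a single library ended the EPHA2 call for EGF in 9 of 12 cases and for HRG in 5 of 12. In BT474, no receptor gene was called for either ligand, where 6.46% and 4.7% of all genes had more open regions (0 of 7 receptor genes had an unadjusted p under 0.05). EPHA2 there had 13 regions with either ligand and 11.5 in the controls (adjusted p = 0.339 for EGF and 0.359 for HRG).

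**Figure D4:**
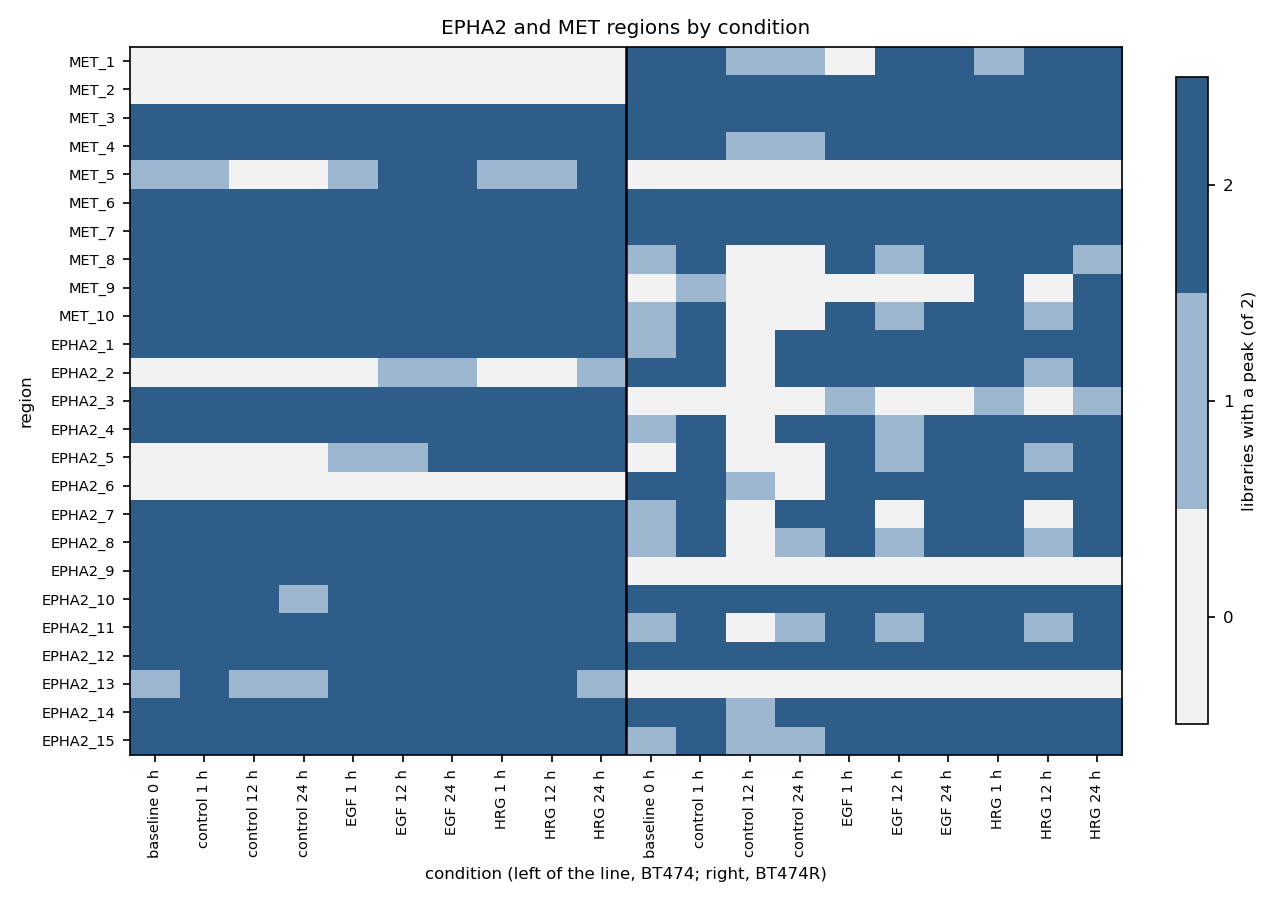
Libraries with a peak (0, 1 or 2, shaded) at each MET and EPHA2 region, numbered from 5′ to 3′ along the gene, in the 10 conditions of BT474 (left) and BT474R (right). MET region 2 and EPHA2 region 9 split completely by line. At 12 h in BT474R, where lists were shortest, several EPHA2 regions had no peak in the controls and a peak in 1 or 2 libraries of each ligand. EPHA2 region 7 had none there with either ligand.

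Ligand was also compared in the rank of the 25 receptor regions open everywhere. With EGF in BT474, 2 of the 25 ranked higher and 2 lower (against 9.7% and 3.79% of all regions), and with HRG 1 and 6 (against 10.2% and 6.02%). In BT474R, EGF gave 1 higher and 5 lower (against 11.5% and 9.84%) and HRG 0 and 1 (against 4.3% and 2.9%). The IGF1R intron region at +79.2 kb rose with EGF in both lines, from 43 to 52.6 in BT474 (+9.56 ± 2.09; limma adjusted p = 0.00313) and from 24.2 to 36.8 in BT474R (+12.6; adjusted p = 0.000102). With HRG in BT474 it rose by 10.3 points (adjusted p = 0.00122). Another IGF1R intron region, at +204 kb, went the other way, by -7.4 points with EGF in BT474 (adjusted p = 0.0112), -7.27 with EGF in BT474R (adjusted p = 0.00753) and -6.13 with HRG in BT474 (adjusted p = 0.0301), the last a call that ended in 7 of 12 cases when a library was left out. Opposite changes thus stood within 1 gene. An INSR intron region at +114.8 kb, by contrast, fell with EGF in BT474R from 36.5 to 18.2 (-18.3 ± 3.09; adjusted p = 0.000121) and by 10.7 points with HRG in BT474. With a library left out, this HRG call in BT474 ended in 5 of 12 cases, and the HRG call on the same region in BT474R (-10.9, adjusted p = 0.0336) in 8 of 12. Whether a ligand acted differently in the lines was tested as an interaction. No receptor region or gene passed in limma. By rank the lowest adjusted p-values were 0.069 for EGF and 0.299 for HRG, with 5 and 3 of the 25 regions at an unadjusted p under 0.05, and by gene they were 0.623 and 0.233, with 0 and 2 of 7 genes. Over all regions 3.37% passed for EGF and 1.56% for HRG, and over all genes 0.575% and 0.745%.

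Related genes gave a frame for these counts. Between lines, 8 of 26 other receptor tyrosine kinases tested had more open regions in BT474R, 13 had fewer and 5 were not called, with 12 not tested. Ligands and co-receptors of the 8 receptors stood at 4, 9 and 3 of 16, with 9 not tested, and adaptors and binding proteins at 5, 9 and 6 of 20, with 7 not tested. Over all genes, 25.6% had more open regions in BT474R and 49.7% had fewer. The median difference was -2.3 for the 7 receptors tested, without FGFR2, -0.275 for other kinases, -0.8 for ligands, -0.275 for adaptors and -0.4 over all genes. These medians are in numbers of regions and are not scaled to how many regions a gene has, so their sizes cannot be compared directly. Among other kinases, the WNT co-receptor RYK fell from 5.6 to 1.8 (-3.8 ± 0.196; limma adjusted p = 4.73e-14), FLT4, a receptor of lymphatic vessels, from 4.6 to 2.15, and the neurotrophin receptor NTRK2 from 6.35 to 3.6. Among those that rose, FGFR3, a relative of FGFR1 and FGFR2, went from 7 to 12.1 (+5.05; adjusted p = 2.84e-11) and ALK from 7.6 to 11.8 (+4.2; adjusted p = 6.55e-09), both named here after their values were seen. Of the ligands, the ephrin EFNA5 fell from 12.3 to 4.95 (-7.4 ± 0.296; adjusted p = 5.42e-16) and FGF1 from 10.3 to 6.05, whereas ARTN, which acts on RET through a co-receptor, rose from 3.2 to 7 (+3.8; adjusted p = 1.58e-14).

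Of the 4 insulin-like growth factor binding proteins on the adaptor list, which hold the ligands of IGF1R, 3 fell and IGFBP4 was not called (5.65 and 5.55). A fall was also called for 49.7% of all genes, so these values describe single genes. IGFBP5 fell from 13.9 to 6.25 open regions (-7.65; limma adjusted p = 1.24e-15) and IGFBP2 from 15.7 to 7.7 (-8; adjusted p = 1.76e-12), and these neighbouring genes share regions through their flanks. IGFBP3 fell from 4.75 to 3.55. FRS3, a docking protein of FGF receptors, rose from 6.75 to 8.7 (+1.95). With ligand in BT474R, 3 of 26 other kinases had more open regions with EGF and 3 with HRG, and 2 and 1 of 20 adaptors did, where 3.89% and 6.32% of all genes did. Of 16 ligand genes, 1 had fewer with EGF. In BT474, limma called 0 of these genes for either ligand, and an unadjusted p under 0.05 was found for 4 of 26 other kinases with each ligand, for 2 and 0 of 16 ligand genes with EGF and HRG and for 4 and 3 of 20 adaptors.

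The sequences of the 97 regions were scanned within 100 bp of the summit for the 4 motifs above and 6 others (FOX, GATA, GRHL, steroid receptor, estrogen response element and CTCF). SP/KLF letters were in 28.9% of the receptor regions, against 19.2% of all regions, and TFAP2 letters in 23.7%, against 16.7%. Both motifs are rich in G and C, and the median GC content of the windows was 57.5% at the receptors and 52% over all. AP-1 letters were in 14.4%, against 16.1%, and TEAD letters in 13.4%, against 13.7%. EPHA2 held AP-1 letters in 6 of its 15 regions and INSR in none of its 10. RET held TFAP2 letters in 7 of 14. Of the 25 receptor regions open everywhere, 0 held AP-1 letters, against 12% of all such regions, and 34 of the 97 held none of the 10 motifs.

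Across the 20 combinations of line, treatment and time, the genes whose counts of open regions ran most like those of a receptor were found by Pearson's r, on other chromosomes and as a description, since all points share the length of their lists. IGF1R ran most like PREX1 (r = 0.972) and FGD3 (0.971), EPHA2 like B3GNT7 (0.973) and SLC12A7 (0.96), and INSR like RPP38 and NMT2 (0.956 each). For AXL these were PDP1 (0.927) and TLCD5 (0.919), and SPECC1L (0.899) was among the closest for RET. FGFR1 and MET had less close matches, TRPM1 (0.778) and GCNT1 (0.735) for the former and STN1 (0.702) and DSC1 (0.679) for the latter. FGFR2 had too few regions for this comparison.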

How the data were processed

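ATAC-seq was measured in 40 libraries of BT474 and BT474R. The authors trimmed reads with Trim Galore 0.6.6, aligned them to GRCh38.p13 with BBMap and called peaks per library with Genrich, which also took out mitochondrial reads and ENCODE blacklisted regions. Its thresholds are not given in these sources. The deposited lists hold a score for each peak (area under the curve of significance, at least 200 in these files) and −log10 p-values or q-values given by the authors. The score was used; the other values were not. Depth is unknown because peak lists carry no read totals.

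Regions on chromosomes 1 to 22 and X were merged over at least 1 bp, kept if found in at least 2 lists and placed on GENCODE release 44. Presence was compared with two-sided Fisher's exact tests, adjusted (Benjamini-Hochberg) over all testable regions. Rank percentiles among regions open in all libraries, and open regions per protein-coding gene with at least 5 regions, were fitted with limma 3.58.1 (R 4.3.3) on 20 line, treatment and time groups; a call is an adjusted p under 0.05. A region is at a start if within 1 kb. Python 3.11.15, numpy 2.4.6, pandas 2.3.3 and scipy 1.17.1 were used, and each test was checked on simulated data.

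The receptors and gene lists were chosen with earlier results of these data known. Regions named are those at a receptor's start, up to 3 others per receptor by smallest line p, any with unadjusted p under 0.05 for a ligand and up to 2 rank calls per receptor; up to 3 genes per list by smallest p are named. Other named regions were chosen after their values were seen. A blood marker and a gene alike to RET are not reported here. Replicate numbers were not treated as pairs. Alternatives were a score of at least 400, equal numbers of peaks (32479), peaks trimmed to 400 bp, regions in at least 4 lists, 50% coverage, gene bodies alone, quantile scores, within-list percentiles, a replicate block, baseline and control libraries alone and each library left out; leaving out the 12 h libraries was added after seeing the data.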

Additional observations from a re-analysis of the deposited data

How the results depend on the processing

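Counts below are of the receptor regions or genes called, beside the value in the report. Regions more often open in BT474R (10) were 5 at a score of at least 400, 5 in gene bodies alone and 6 in baseline and control libraries. Those more often open in BT474 (32) were 21 with equal numbers of peaks, 20 in gene bodies, 21 in baseline and control libraries and 21 without 12 h. Ranks higher in BT474R (8) were 5 at a score of at least 400, 5 with equal numbers and 3 in gene bodies, and lower ranks (11) were 6 at a score of at least 400 and 6 in gene bodies. Genes with more open regions in BT474R (1) were 0 at a score of at least 400 and in baseline and control libraries, and 2 in gene bodies and without 12 h. FGFR1 turned to -0.3 at a score of at least 400 (adjusted p = 0.0127, limma) and to -0.1 with equal numbers of peaks. The cause was not tested. The smaller sets in gene bodies and without 12 h hold fewer regions or libraries by construction.

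For ligands, the HRG presence call in BT474 (1) was 0 with equal numbers of peaks, and 0 in gene bodies, which leave out the upstream region. EGF presence in BT474R (0) was 1 with equal numbers. By rank, EGF in BT474 (2 higher, 2 lower) gave 1 higher at a score of at least 400, with quantile-normalized scores, without 12 h and in gene bodies, and 1 lower at a score of at least 400 and 0 lower with within-list percentiles and without 12 h. HRG in BT474 (1 higher, 6 lower) gave 0 higher and 3 lower at a score of at least 400, 0 and 2 with within-list percentiles, 3 lower without 12 h and 2 lower in gene bodies. EGF in BT474R (1 higher, 5 lower) gave 0 and 1 at a score of at least 400, 2 and 2 with within-list percentiles, and 3 lower with equal numbers and in gene bodies. HRG in BT474R (0 higher, 1 lower) gave 2 higher and 0 lower with within-list percentiles, and 0 lower at a score of at least 400, with equal numbers and without 12 h. The HRG interaction by rank (0) gave 1 higher with within-list percentiles. By gene, HRG in BT474 (0 lower) gave 1 lower at a score of at least 400 and with equal numbers. EGF in BT474R (1 higher) gave 0 without 12 h, HRG in BT474R (2 higher) gave 1 at a score of at least 400 and in gene bodies and 0 with equal numbers and without 12 h, and the EGF interaction (0) gave 1 with equal numbers. For EPHA2 in gene bodies alone, the EGF and HRG differences in BT474R were both +0.667 (adjusted p = 0.324 and 0.26, limma).

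With each library left out in turn, regions more often open in BT474R stayed at 10 to 10 and in BT474 at 32 to 33, ranks at 8 to 9 higher and 11 to 12 lower, and genes at 1 to 1 higher and 4 to 4 lower. Presence calls with ligand ran from 0 to 1 for EGF and 1 to 1 for HRG in BT474, and from 0 to 1 for EGF and 0 to 2 for HRG in BT474R. Rank calls ran from 1 to 2 higher and 1 to 4 lower for EGF in BT474, 1 to 2 and 3 to 6 for HRG in BT474, 1 to 1 and 5 to 7 for EGF in BT474R, 0 to 1 and 0 to 1 for HRG in BT474R, and 0 to 1 lower for the EGF interaction. Gene calls ran from 0 to 3 for EGF and 1 to 4 for HRG in BT474R and from 0 to 1 for the HRG interaction. Without the second 12 h control library of BT474R, MET (+1.5, adjusted p = 0.0233, limma) and RET (+1.33, adjusted p = 0.0265) were also called for EGF. For HRG, RET and AXL were then called too. EPHA2 differences in BT474R stayed between 2.67 and 3.67 for EGF and 2.67 and 4 for HRG.

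Differences between the replicates of a pair correlated between ligand and control at -0.0508 to 0.258, with 4 of 12 over 0.1. Between the lines these correlations ran from -0.0505 to 0.423, with 1 of 10 over 0.1. Pairing by replicate number was thus weak in most cases but not shown to be absent. A replicate block left 10 and 32 regions called between lines, and with it no count of calls moved by more than 1.5 times.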
